A study of Mus musculus with 8 samples.

Results

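The genes described here encode 10 cell surface proteins by which fat stromal cells and their adipocyte progenitors are recognised: Nt5e, Dpp4, Pi16, Alcam, Thy1, Pdgfra, Ly6a, Cd34, Vcam1 and Lepr. They were chosen by name, but with earlier results of these data known, so they are not a set picked blind to the values. They were found on the arrays through the transcript accession of each probe, which gave 17 probes of 56605 non-control probes. Each gene is represented by its brightest usable probe in the tests, and 9 of the 10 genes were among the 29585 genes or unnamed features tested. The exception was Ly6a, whose single probe carried an outlier flag on 1 array.

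The cells came from C57BL/6 male mice that were 6 weeks old when feeding began. The 4 groups were a 60% fat diet for 12 weeks (HF12), control chow for 12 weeks (C12), the 60% fat diet for 24 weeks (HF24) and control chow for 24 weeks (C24), with 2 arrays each. In all groups abdominal subcutaneous fat was digested with collagenase, and the cells that stuck to uncoated plastic were passaged 2 or 3 times before total RNA was taken. The submitters used these cells as adipose-derived mesenchymal stem cells and titled the study after ageing, with the 12-week animals as the young ones. The culture was not sorted for any surface protein, so the population is defined by adherence alone. No label says whether the 2 arrays of a group came from separate animals, so the p-values reflect array-to-array spread within these groups and may capture technical spread alone.

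Adipose stroma holds several kinds of fibroblast-like progenitor. In mouse subcutaneous fat, cells with DPP4 and PI16 lie in the fibrous septa between lobules and can give rise to more committed preadipocytes. PDGFRα, SCA-1 (the product of Ly6a) and CD34 are used to sort the progenitor pool as a whole, whereas CD73 (the product of Nt5e) and CD90 (the product of Thy1) belong to the panel that defines cultured mesenchymal stromal cells. ALCAM, VCAM1 and the leptin receptor are better known from bone marrow stroma.

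On its brightest probe, each of the 9 tested markers was well above background on all 8 arrays, by the scanner software's own flag. The same held for Ly6a, and for all 16 genes on a list of other stromal surface markers, among them Eng, Cd44, Itgb1 and Pdgfrb. The remaining Lepr probes were not well above background on any array, and the second Dpp4 probe was so only in C12. All 10 macrophage markers on a second list (Cd68, Adgre1, Csf1r, Cd14, C1qa, C1qb, Fcgr1, Mrc1, Lyz2 and Ptprc) were well above background on all 8 arrays as well. Levels are given below as processed intensity, the background-subtracted brightness of a spot in arbitrary units, and differences as log2 changes after each array's 75th percentile had been subtracted. That percentile lay between 1326 and 1485 on the 8 arrays. The share of probes well above background was 57.6% and 59.3% in HF24 and 60.3% and 62.4% in C24. It was 65.1% to 67.2% on the 12-week arrays. The median intensity was 90.1 on both HF24 arrays, against 101.5 to 110.9 on the others. Subtracting the percentile does not remove such differences. Arrays of 1 group correlated at r = 0.985 to 0.994 over probes above background, and arrays of different groups at 0.952 to 0.978. On the single slide the 12-week arrays filled row 1 and the 24-week arrays row 2, and chow and high-fat arrays lay in different columns, so slide position and group cannot be told apart.

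RefSeq promoter windows were matched for 7 of the 10 genes. The windows of the 5 genes whose diet difference changed between the feeding times are printed here, since these genes carry the main result. Each runs from 250 bases before to 50 bases after the start of the gene, 5′ to 3′ on the strand of the gene, in assembly GRCm38.p6. Capitals mark matches, on either strand, to 3 short promoter motifs. The first is GGGCGG, known as the GC box. The second is TATAAA, known as the TATA box. The last is CCAAT, and a match on the opposite strand appears as the reverse complement.
Nt5e, chr9:88327359-88327658, plus strand: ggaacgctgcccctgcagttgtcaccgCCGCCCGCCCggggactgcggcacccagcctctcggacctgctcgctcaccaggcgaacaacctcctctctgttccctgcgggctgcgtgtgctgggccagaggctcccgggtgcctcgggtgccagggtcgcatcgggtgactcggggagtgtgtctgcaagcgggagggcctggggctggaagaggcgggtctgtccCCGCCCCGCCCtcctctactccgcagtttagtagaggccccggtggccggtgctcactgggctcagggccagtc
Dpp4, chr2:62412182-62412481, minus strand: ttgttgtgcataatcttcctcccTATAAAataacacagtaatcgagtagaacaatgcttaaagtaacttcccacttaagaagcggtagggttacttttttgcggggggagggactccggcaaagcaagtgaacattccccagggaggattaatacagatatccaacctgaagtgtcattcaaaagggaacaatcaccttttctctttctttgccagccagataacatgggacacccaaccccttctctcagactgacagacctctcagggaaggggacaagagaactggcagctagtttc
Pi16, chr17:29318632-29318931, plus strand: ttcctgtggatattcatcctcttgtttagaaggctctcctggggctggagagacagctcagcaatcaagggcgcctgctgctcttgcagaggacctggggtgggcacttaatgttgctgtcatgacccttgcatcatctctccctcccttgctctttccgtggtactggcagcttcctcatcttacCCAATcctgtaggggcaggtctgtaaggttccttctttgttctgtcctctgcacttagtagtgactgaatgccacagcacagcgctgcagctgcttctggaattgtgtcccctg
Cd34, chr1:194938571-194938870, plus strand: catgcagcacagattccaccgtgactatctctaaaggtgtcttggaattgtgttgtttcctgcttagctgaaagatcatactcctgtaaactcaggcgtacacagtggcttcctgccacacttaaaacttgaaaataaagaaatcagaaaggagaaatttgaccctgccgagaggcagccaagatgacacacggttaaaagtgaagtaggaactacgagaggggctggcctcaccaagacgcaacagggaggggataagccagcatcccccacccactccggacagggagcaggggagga
Alcam, chr16:52453032-52453331, minus strand: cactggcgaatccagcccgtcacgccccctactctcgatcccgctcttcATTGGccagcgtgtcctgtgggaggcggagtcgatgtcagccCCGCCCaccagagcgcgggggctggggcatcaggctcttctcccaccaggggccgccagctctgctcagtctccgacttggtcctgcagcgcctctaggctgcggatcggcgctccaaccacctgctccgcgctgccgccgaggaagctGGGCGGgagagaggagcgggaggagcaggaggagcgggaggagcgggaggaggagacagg
The Nt5e and Alcam windows were rich in CpG, with 23 and 25 CpG dinucleotides and a GC content of 71.0% and 69.7%. The windows of Dpp4, Pi16 and Cd34 held 4, 3 and 7 CpG, with a GC content of 45.3%, 53.3% and 50%. Across all 32851 promoter windows of the table the median was 7 CpG and 52.7% GC. GGGCGG occurred 4 times in the Nt5e window, as 2 overlapping pairs, and 2 times in the Alcam window, and 35.7% of all windows held it. TATAAA occurred once in the Dpp4 window, 227 bases before the start, and 13.6% of all windows held it. CCAAT occurred once in the Pi16 window, 64 bases before the start, and once in the Alcam window, and 37.4% of all windows held it. The Cd34 window held none of these motifs.

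After 12 weeks of feeding most of the markers were lower on the high-fat diet. Of the 9 tested, 6 fell in HF12 relative to C12 (Nt5e, Dpp4, Pi16, Pdgfra, Cd34 and Vcam1), Alcam and Thy1 rose, and Lepr did not pass the test (limma, Benjamini-Hochberg adjusted p under 0.05). Of all genes tested, 31.3% passed in this comparison, 13.7% higher and 17.6% lower. The changes of 5 markers were at least 2-fold, a size that 7.21% of all genes reached with a call. The median log2 change of the 9 was −0.57, against −0.03 over all genes. With quantile scaling in place of the 75th percentile 1 marker rose and 6 fell, because Thy1 no longer passed. In these bulk cultures fewer cells of a type and less RNA per cell cannot be told apart.

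After 24 weeks the same comparison gave smaller differences for several markers, while those of Pdgfra and Thy1 were nearly the same. On its second probe Vcam1 differed more at 24 weeks, and Lepr passed at neither time. In HF24 relative to C24, 4 of the 9 fell (Nt5e, Dpp4, Pdgfra and Cd34) and Thy1 rose, where 33.2% of all genes passed, 12.9% higher and 20.2% lower. Calls of 2-fold or more numbered 0 of 9, where 7.54% of all genes had one. The median log2 change was −0.10, against −0.01 over all genes. With quantile scaling 0 markers rose and 3 fell, Nt5e and Thy1 being the calls lost. The count was 2 without HF24 replicate 1 and also without C24 replicate 1, and 3 without HF24 replicate 2, so this count rests on single arrays.

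Markers of other cell types moved with the same groups. The summed level of the 10 macrophage markers, in units of the array's 75th percentile, was 201 on both HF12 arrays, against 27.9 and 28.2 in C12. It was 145 and 148 in HF24, against 72.5 and 74.1 in C24. The order of the groups on this list, HF12 highest and C12 lowest, is that of Alcam and the reverse of that of Nt5e, Dpp4 and Cd34. Pi16 and Vcam1 had that reverse order in their means, but the HF24 and C24 arrays overlapped for Pi16 and the C24 and C12 arrays for Vcam1, and the second Vcam1 probe had another order, with C24 highest and HF24 lowest. All 10 macrophage markers rose in HF12 relative to C12 and 9 of 10 in HF24 relative to C24, where 13.7% and 12.9% of all genes rose. All 10 rose in C24 relative to C12, where 24.5% of all genes did. In HF24 relative to HF12, 1 rose and 8 fell, where 21.1% of all genes rose and 25.5% fell. Their part in the marker differences was not tested.

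**Figure D1:**
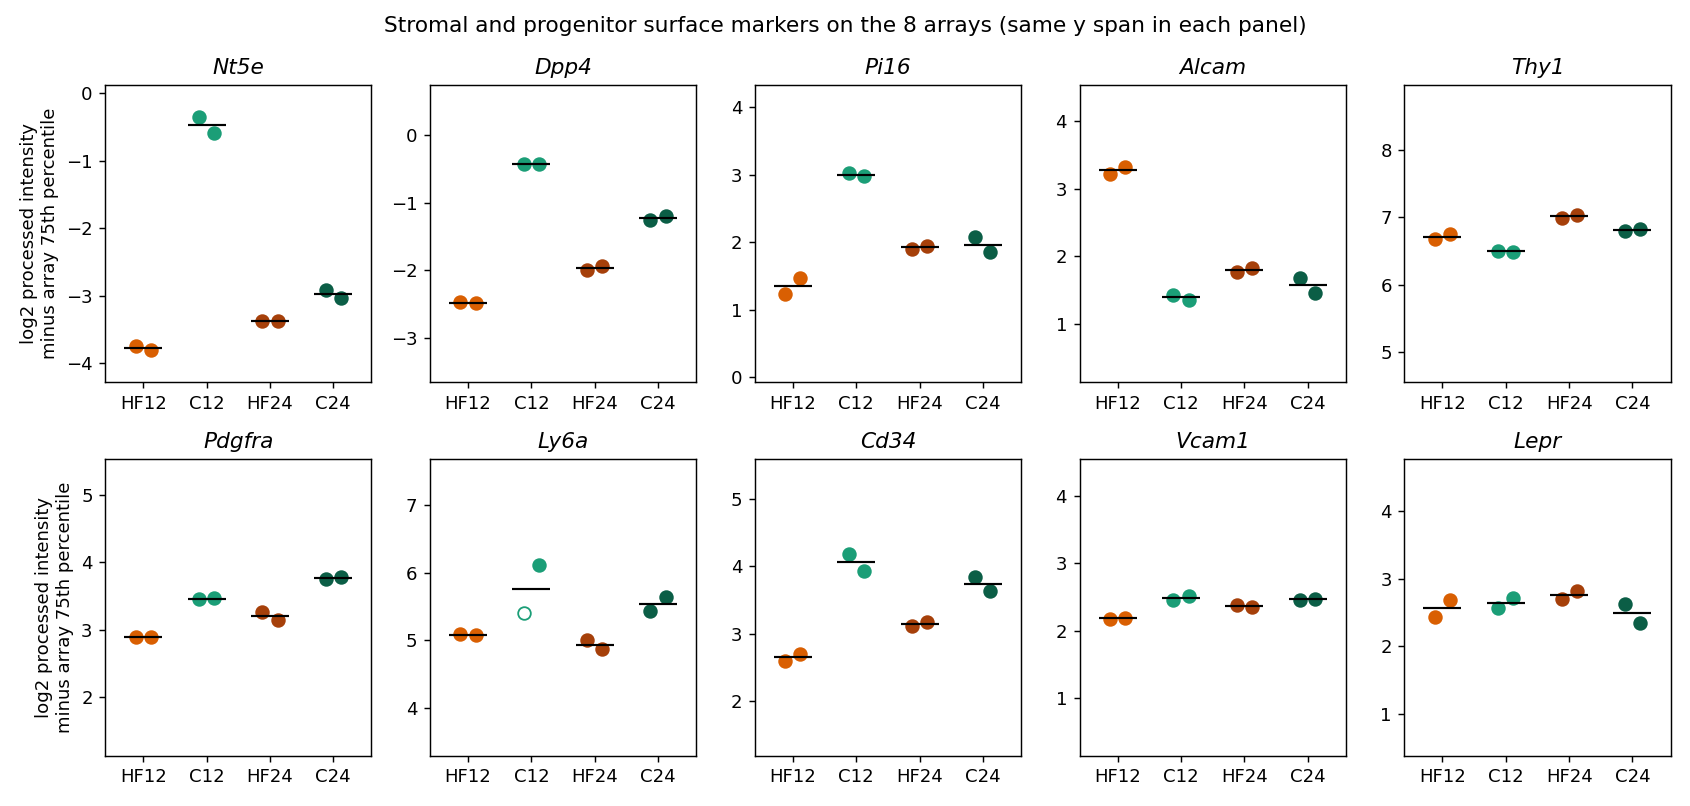
Level of each marker on each of the 8 arrays, as log2 processed intensity minus the 75th percentile of its array, with 1 point per array and a line at each group mean. All panels span the same number of log2 units, and the open Ly6a point is the array with the outlier flag. Nt5e, Dpp4, Pi16 and Cd34 are lowest in HF12 and highest in C12, while Alcam is highest in HF12.

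Nt5e encodes CD73, the ectoenzyme that makes adenosine from extracellular AMP. Its processed intensity was 111 and 96.3 on the HF12 arrays, against 1115 and 893 on the C12 arrays. At 24 weeks it was 129 and 128 on the HF24 arrays, against 187 and 171 on the C24 arrays. The C12 arrays stood far above the other 6, and no 2 groups overlapped. Absence of overlap was common with 2 arrays a group. It was seen in 68.7% of all genes for HF12 and C12, where 8 of the 9 markers had it. The figures were 69.7% and 8 for HF24 and C24, 72.6% and 7 for C24 and C12, and 76.9% and 9 for HF24 and HF12. Nt5e was 9.88-fold lower in HF12 than in C12 (log2 change −3.31 ± 0.09 SE, limma adjusted p = 5.50e-06). Of 29585 genes tested, 60 (0.203%) fell as far or further in that comparison, Nt5e included. In HF24 relative to C24 the log2 change was −0.40 ± 0.09 (adjusted p = 0.0228), and that call was lost with quantile scaling (−0.23, adjusted p = 0.117) and without HF24 replicate 1, HF24 replicate 2 or C24 replicate 1.

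The chow cells themselves differed with feeding time. Nt5e was 5.66-fold lower in C24 than in C12 (log2 change −2.50 ± 0.09, adjusted p = 1.93e-05). In the high-fat cells the change with time ran the other way and was small, 0.40 ± 0.09 in HF24 relative to HF12 (adjusted p = 0.0165). This last call was lost without any 1 of the 4 high-fat arrays, with adjusted p from 0.0605 to 0.0846. The lowest diet group and the highest chow group were therefore both at 12 weeks. With normexp background correction of the median signal and quantile scaling together, the change in HF12 was −2.51, and it still passed.

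Dpp4 encodes DPP4 (CD26), a peptidase that trims dipeptides from incretins and from chemokines such as CXCL12. Its intensity was 267 and 239 in HF12, against 1057 and 1001 in C12. It was 335 and 345 in HF24, against 584 and 608 in C24. No groups overlapped, and both high-fat groups lay below both chow groups. Dpp4 was 4.16-fold lower in HF12 than in C12 (log2 change −2.06 ± 0.05, adjusted p = 4.05e-06) and 1.67-fold lower in HF24 than in C24 (−0.74 ± 0.05, adjusted p = 3.76e-04). With feeding time it fell in chow cells (C24 relative to C12, −0.81 ± 0.05, adjusted p = 1.37e-04) and rose in high-fat cells (HF24 relative to HF12, 0.51 ± 0.05, adjusted p = 9.44e-04). A second Dpp4 probe, A_52_P417368, was well above background on both C12 arrays and on no other array. It was kept through C12 alone, the group where it was brightest, so it is not independent support for a fall from C12. On that probe Dpp4 was at least 2.38-fold lower in HF12 than in C12, and at least 1.03-fold lower in C24 than in C12, where the dim group is set no lower than the faintest signal above background.

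Pi16 encodes peptidase inhibitor 16, a membrane-anchored member of the cysteine-rich secretory protein family. Its intensity was 3502 and 3718 in HF12, against 11536 and 10576 in C12. It was 5030.3 and 5118 in HF24, against 5909 and 5053 in C24. The 12-week groups were apart, while the 24-week groups overlapped. Pi16 was 3.13-fold lower in HF12 than in C12 (log2 change −1.65 ± 0.11, adjusted p = 1.47e-04). At 24 weeks (HF24 relative to C24) the change was −0.04 ± 0.11, with a 95% interval of −0.30 to 0.23 (adjusted p = 0.823), so a 24-week difference as large as that at 12 weeks lies outside the interval. Pi16 fell in C24 relative to C12 (−1.04 ± 0.11, adjusted p = 7.16e-04) and rose in HF24 relative to HF12 (0.57 ± 0.11, adjusted p = 0.00725).

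Cd34 encodes a sialomucin of the surface of haematopoietic, endothelial and stromal progenitors. Its intensity was 9022 and 8769 in HF12, against 25803 and 20583 in C12. It was 11575 and 11951 in HF24, against 20068 and 17340.4 in C24. Both high-fat groups lay below both chow groups, with no overlap. Cd34 was 2.65-fold lower in HF12 than in C12 (log2 change −1.41 ± 0.11, adjusted p = 3.51e-04), and a dimmer second probe, A_55_P2009225, gave −1.34 ± 0.15 (adjusted p = 0.00162). The 24-week change, HF24 relative to C24, was −0.59 ± 0.11 (adjusted p = 0.0102), a call lost without HF24 replicate 1 (adjusted p = 0.0520) and without C24 replicate 1 (adjusted p = 0.0507). It rose in HF24 relative to HF12 (0.49 ± 0.11, adjusted p = 0.0155), a call lost on the second probe (0.30, adjusted p = 0.169) and without any 1 of the 4 high-fat arrays. For C24 relative to C12 the change was −0.33 ± 0.11 (adjusted p = 0.0579), with a 95% interval of −0.60 to −0.05. That change passed with quantile scaling (adjusted p = 0.0274).

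Alcam encodes CD166, an immunoglobulin-family adhesion protein that binds CD6 on T cells and also binds itself. It went against the progenitor markers. Its intensity was 13842 and 13431 in HF12, against 3822 and 3441 in C12. It was 4547 and 4722 in HF24, against 4493 and 3852 in C24. The HF12 arrays stood above all others, and the remaining 3 groups lay close together without overlap. Alcam was 3.68-fold higher in HF12 than in C12 (log2 change 1.88 ± 0.09, adjusted p = 4.12e-05). At 24 weeks HF24 differed from C24 by 0.23 ± 0.09 (adjusted p = 0.108), with a 95% interval of 0.00 to 0.45. It fell in HF24 relative to HF12 (−1.47 ± 0.09, adjusted p = 1.30e-04).

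The 2 Alcam probes disagreed about feeding time in chow cells. The brighter probe, A_55_P2914546, gave a log2 change of 0.18 ± 0.09 in C24 relative to C12 (adjusted p = 0.163). The other, A_51_P359272, had an intensity of 1425 and 1456 in C24, against 663 and 678 in C12, and gave 1.08 ± 0.06 (adjusted p = 8.03e-05). Both probes carry the same transcript accession. They agreed in direction for diet at 12 weeks, where the second gave 2.46 ± 0.06 (adjusted p = 3.53e-06), and neither passed for diet at 24 weeks.

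**Figure D2:**
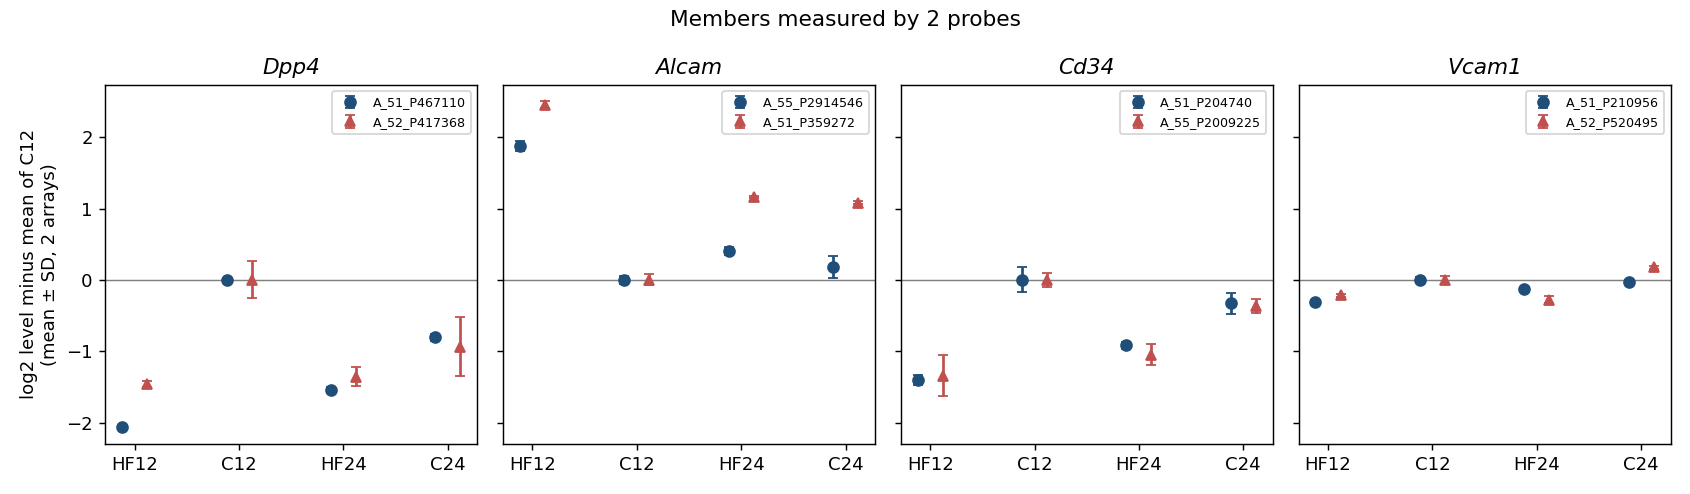
Mean level ± SD (2 arrays per group) of the 4 markers measured by more than 1 usable probe, each probe as log2 units above or below its own C12 mean. The paired probes of Cd34 run together, those of Alcam part in HF12, HF24 and C24, and those of Vcam1 differ in group order. The second Dpp4 probe (A_52_P417368) is above background in C12 only.

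Vcam1 encodes the endothelial and stromal ligand of α4 integrins. Its intensity was 6709 and 6105 in HF12, against 7782 and 7693 in C12. It was 6966 and 6725 in HF24, against 7685 and 7748 in C24. The spread over all groups was narrow, 0.34 log2 units from the lowest to the highest array. Vcam1 was 1.24-fold lower in HF12 than in C12 (log2 change −0.31 ± 0.05, adjusted p = 0.00770). Between HF24 and C24 the change was −0.10 ± 0.05 (adjusted p = 0.191), whereas the second probe, A_52_P520495, gave −0.45 ± 0.06 (adjusted p = 0.00279). For HF24 relative to HF12 the first probe gave 0.18 ± 0.05 (adjusted p = 0.0342) and the second −0.06 ± 0.06 (adjusted p = 0.449), so the direction of that change depends on the probe. The call on the first probe was also lost with quantile scaling (0.11, adjusted p = 0.159) and without any 1 of the HF12, HF24 or C24 arrays. In C24 relative to C12 the change was −0.02, with a 95% interval of −0.15 to 0.10.

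Thy1 encodes CD90, a small glycoprotein held in the membrane by a lipid anchor. Its intensity was 151795 and 145257 in HF12, against 128165 and 121285 in C12. It was 171393 and 173474 in HF24, against 155597 and 159753 in C24. No spot was saturated, and the 4 groups did not overlap. Thy1 was 1.16-fold higher in HF12 than in C12 (log2 change 0.22 ± 0.06, adjusted p = 0.0306) and 1.15-fold higher in HF24 than in C24 (0.20 ± 0.06, adjusted p = 0.0394). Each of these calls was lost when any 1 of the 8 arrays was left out, with adjusted p from 0.0526 to 0.147 at 12 weeks and from 0.0557 to 0.166 at 24 weeks. They were lost too with the replicate number as a block (adjusted p = 0.0518 and 0.0629) and with quantile scaling. Thy1 also rose with feeding time, by 0.32 ± 0.06 in C24 relative to C12 (adjusted p = 0.00542) and by 0.30 ± 0.06 in HF24 relative to HF12 (adjusted p = 0.00744), and both calls were lost with quantile scaling (0.12 and 0.07).

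Ly6a encodes SCA-1, another lipid-anchored protein, by which mouse progenitors are sorted in many tissues. Its intensity was 50511 and 45369 in HF12, against 60066.5 (the flagged spot) and 93423 in C12. It was 43044 and 38662 in HF24, against 60705 and 69778 in C24. Both high-fat groups lay below both chow groups, and the chow groups overlapped. Because of the flag the probe is not in the main fit, and its test was added after this was seen, with the flagged value treated as missing so that C12 is represented by 1 array. In that fit Ly6a was lower in HF12 than in C12 (log2 change −1.03) and lower in HF24 than in C24 (−0.60). It was lower by 0.58 in C24 than in C12, and the change of −0.15 in HF24 relative to HF12 did not pass the test. The lone C12 array is assumed there to vary like the other groups. Both differences from C12 depend on the spot left out. Its log2 level was 5.41, below both C24 arrays (5.44 and 5.64), while the other C12 array read 6.12. With both C12 arrays the group means were 5.76 in C12, 5.54 in C24 and 5.08 in HF12.

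Pdgfra encodes the receptor for platelet-derived growth factor that marks fibroblasts and adipocyte progenitors. Its intensity was 11057 and 9923 in HF12, against 15572 and 14886 in C12. It was 12876 and 11702 in HF24, against 18842 and 19263 in C24. Diet separated the groups at both times, and within each diet the 24-week arrays were the higher. Pdgfra fell in HF12 relative to C12 (log2 change −0.57 ± 0.06, adjusted p = 0.00119) and in HF24 relative to C24 (−0.56 ± 0.06, adjusted p = 0.00130), about 1.49-fold and 1.48-fold lower. It rose in C24 relative to C12 (0.30 ± 0.06, adjusted p = 0.00895) and in HF24 relative to HF12 (0.31 ± 0.06, adjusted p = 0.00862). The last call was lost without HF24 replicate 1 (adjusted p = 0.0546), and with quantile scaling that change was 0.20 (adjusted p = 0.0457).

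Lepr encodes the leptin receptor. Its intensity on probe A_55_P2177910 was 8049 and 8674 in HF12, against 8358 and 8857 in C12. It was 8692 and 9315 in HF24, against 8658 and 7105 in C24. The groups next to each other in level all overlapped, and no comparison passed. The 95% intervals were −0.40 to 0.25 for HF12 relative to C12, −0.06 to 0.60 for HF24 relative to C24, −0.48 to 0.17 for C24 relative to C12 and −0.14 to 0.52 for HF24 relative to HF12. The other 3 Lepr probes, A_55_P2177911, A_55_P2506350 and A_66_P130517, were well above background on 0 of 8 arrays. A_55_P2177911 carries the same accession as the bright probe, so the measured level of this gene depends on which probe is read.

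Whether the diet difference changed between the 2 feeding times was tested directly, as the HF24 minus C24 difference minus the HF12 minus C12 difference. For 5 of the 9 markers this difference passed, where 29.7% of all genes passed. It was positive for Nt5e (2.90 ± 0.13, adjusted p = 8.74e-05), Pi16 (1.61 ± 0.15, adjusted p = 9.60e-04), Dpp4 (1.32 ± 0.08, adjusted p = 1.80e-04) and Cd34 (0.81 ± 0.16, adjusted p = 0.0130), and 12.7% of all genes passed in that direction. It was negative for Alcam (−1.65 ± 0.13, adjusted p = 4.74e-04), as it was for 16.9% of all genes. For these 5 genes the 24-week diet difference was the smaller in size. The Cd34 call was lost without HF12 replicate 1 (adjusted p = 0.0528) and on its second probe (0.66, adjusted p = 0.0720). On the second Dpp4 probe, which is near background outside C12, the difference was 1.04 (adjusted p = 0.0501).

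Pdgfra and Thy1 gave no such difference. The change in the Pdgfra diet difference was 0.01, with a 95% interval of −0.20 to 0.22, and that of Thy1 was −0.02, with an interval of −0.21 to 0.17. For Vcam1 it was 0.20 (0.02 to 0.39, adjusted p = 0.0904) on the first probe and −0.24 ± 0.08 (adjusted p = 0.0893) on the second, so its direction depends on the probe. It was, for Lepr, 0.34 (−0.12 to 0.81, adjusted p = 0.229). For Ly6a, in the fit with its flagged spot missing, it was 0.43 ± 0.15 (adjusted p = 0.0955).

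**Figure D3:**
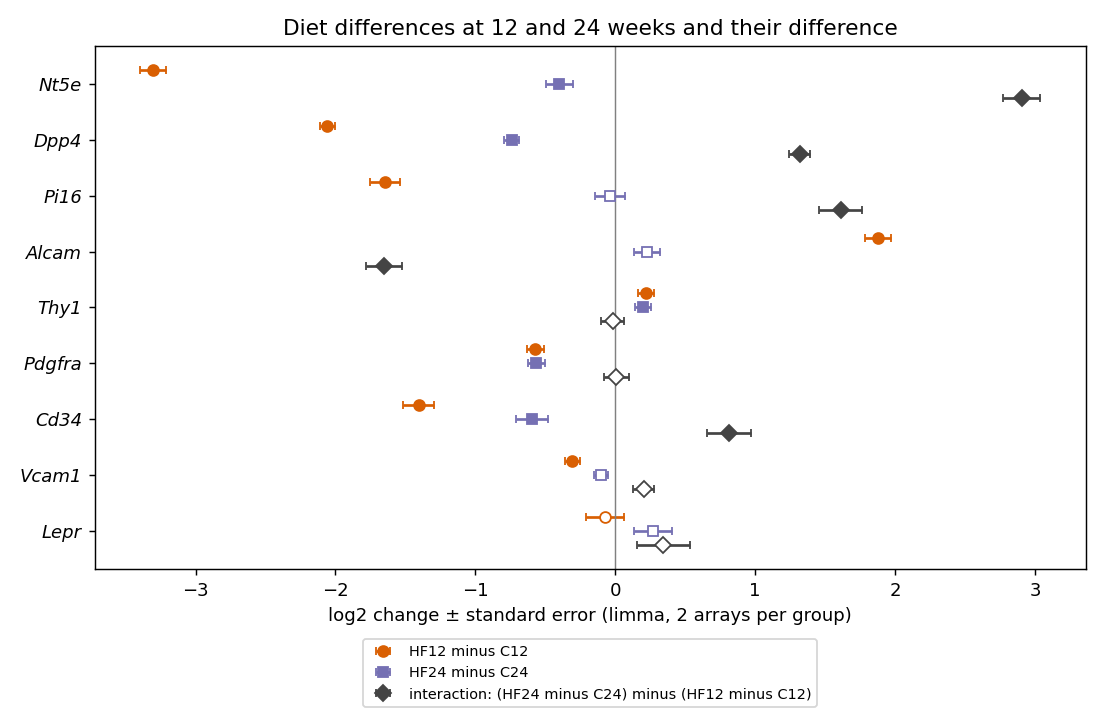
Log2 change ± standard error of the 9 tested markers for HF12 minus C12 (circles), HF24 minus C24 (squares) and the second difference minus the first (diamonds), with 2 arrays per group. Filled symbols passed at an adjusted p under 0.05 and open symbols did not. Nt5e, Dpp4, Pi16, Cd34 and Alcam move toward 0 at 24 weeks, whereas the 2 diet differences of Pdgfra nearly coincide.

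Feeding time was then compared within each diet. In chow cells 5 of the 9 markers passed in C24 relative to C12, where 46.5% of all genes passed. Nt5e, Dpp4 and Pi16 fell and Thy1 and Pdgfra rose, with 22% of all genes lower and 24.5% higher. In high-fat cells 8 of 9 passed in HF24 relative to HF12, where 46.6% of all genes passed. Nt5e, Dpp4, Pi16, Thy1, Pdgfra, Cd34 and Vcam1 rose and Alcam fell, with 21.1% of all genes higher and 25.5% lower. This count was 4 without HF24 replicate 1 and 5 without HF24 replicate 2 or either HF12 array. The median log2 change was 0.31 in the high-fat comparison and −0.15 in the chow comparison, against −0.03 and 0.02 over all genes. Each time comparison shares its arrays with both diet comparisons, so these counts are not independent of those above.

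Among the 9 markers, levels over the 8 arrays went together for some pairs and not for others. As descriptions over arrays that fall into 4 groups, Pearson's r was 0.96 between Nt5e and Pi16, 0.92 between Nt5e and Dpp4, 0.97 between Dpp4 and Cd34 and 0.44 between Nt5e and Pdgfra. Alcam ran opposite to Vcam1 (r = −0.97) and to Cd34 (r = −0.87). Among all genes with a symbol, the 3 most like Nt5e were Ncald, Fasn and Rarres2 (r = 0.999, 0.998 and 0.997 over the 8 arrays). Fasn is the fatty acid synthase and Rarres2 encodes chemerin. Those most like Dpp4 were Art3, Enpep and Nrep (r = 0.997, 0.995 and 0.994), of which Enpep encodes another surface peptidase, aminopeptidase A. For Pi16 they were Ebf3, Syne2 and Nhlrc2 (r = 0.998, 0.990 and 0.988), and for Cd34 Usp53, Man1a and Tnfaip6 (r = 0.994, 0.994 and 0.993).

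The genes closest to the remaining markers were found in the same way. Those most like Alcam were Pgap1, Fuca2 and Cfap161 (r = 0.997, 0.997 and 0.996). Those most like Pdgfra were Prr5, Slco2a1 and Csf1 (r = 0.989, 0.988 and 0.987), Csf1 being the macrophage growth factor. For Thy1 they were H3c4, H3f3b and Nxph4 (r = 0.995, 0.994 and 0.991), the first and second of which encode histone H3. Among those most like Vcam1 were Mylk2 and Tbx1 (r = 0.993 and 0.988). For Lepr they were Krtap19-4, Prox2 and the 28S ribosomal RNA gene Rn28s1 (r = 0.991, 0.962 and 0.959).

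Many of the genes that accompany Dpp4 and Pi16 in the septal progenitors fell with the fat-rich diet, and others did not pass the test. Of 12 such genes, 0 rose and 7 fell in HF12 relative to C12, where 17.6% of all genes fell, with a median log2 change of −0.56. At 24 weeks, HF24 relative to C24, 0 rose and 8 fell, where 20.2% of all genes fell, with a median of −0.75. Cd248, Creb5, Anxa3 and Dact2, named after their values were seen, passed at neither time, with log2 changes between −0.13 and 0.08. Cd55, a complement regulator of the cell surface, fell in both (−1.76 ± 0.06 and −1.22 ± 0.06). Bmp7, a growth factor that promotes brown fat, fell by 3.13 ± 0.17 in HF12, and the guidance factor Sema3c fell by 1.87 ± 0.15 in HF24. With feeding time the list was mixed, with 3 higher and 5 lower in C24 relative to C12 and the same counts in HF24 relative to HF12. All genes were 24.5% higher and 22% lower by call in the first of these, and 21.1% and 25.5% in the second. Bmp7 fell by 4.14 ± 0.17 in C24 relative to C12 and by 1.87 ± 0.17 in HF24 relative to HF12.

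The list of 16 other stromal surface markers held calls in both directions. In HF12 relative to C12, 3 rose and 4 fell, where 13.7% of all genes rose and 17.6% fell, with a median of −0.07. The aminopeptidase gene Anpep (CD13) rose by 0.81 ± 0.05 and Cd9 by 0.90 ± 0.08, while Fap, a fibroblast protease, fell by 1.04 ± 0.11. For HF24 relative to C24, 1 rose and 4 fell, where 12.9% of all genes rose and 20.2% fell, with a median of −0.03. The largest fall of these was in Ngfr, the low-affinity nerve growth factor receptor (−2.46 ± 0.09). With feeding time more of this list rose. In C24 relative to C12, 10 were higher and 2 lower, where 24.5% of all genes were higher and 22% lower. In HF24 relative to HF12, 8 were higher and 3 lower, where 21.1% of all genes were higher and 25.5% lower.

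Of the 9 genes on a list for committed preadipocytes, 7 were lower and 2 higher in HF12 relative to C12, with a median of −0.74. Among all genes 17.6% fell and 13.7% rose in that comparison, and 20.2% and 12.9% in HF24 relative to C24. The adipokine gene Adipoq fell by 3.33 ± 0.07 and the lipid droplet gene Plin1 by 3.28 ± 0.09. Fabp4, a fatty acid carrier, fell by 2.18 ± 0.06 and Pparg, the adipogenic transcription factor, by 1.38 ± 0.05. The 2 that rose were Cd36 (1.43 ± 0.08) and Icam1 (0.36 ± 0.08), both named after their values were seen. For HF24 relative to C24, 5 were lower and 1 higher, with Plin1 at −1.60 ± 0.09 and Dlk1, a preadipocyte protein, at −1.30 ± 0.09. Adipoq was not well above background on the HF24 arrays and was at least 6.03-fold lower there than in C24. The 1 gene that rose at 24 weeks was Pparg (0.20 ± 0.05, adjusted p = 0.0293), and Fabp4 was at 0.12 ± 0.06 (adjusted p = 0.174), both named after their values were seen. In C24 relative to C12, 7 were lower and 1 higher, with Adipoq at −9.17 ± 0.07, and in HF24 relative to HF12 all 9 were lower. Among all genes 22% were lower and 24.5% higher in the first of these, and 25.5% lower in the second. A list of 8 genes of the F3-positive regulatory stromal cells had 1 higher and 3 lower in HF12 relative to C12. The cholesterol exporter gene Abcg1 rose by 1.82 ± 0.06, while Gdf10 fell by 0.95 ± 0.08, Mgp by 0.96 ± 0.09 and Meox2 by 0.31 ± 0.05. In the 24-week comparison the list had 4 higher and 2 lower, with Gdf10 at −1.72 ± 0.08.

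The enzymes and receptors around CD73 moved in both directions. Of 11 tested genes of extracellular ATP and adenosine handling, 5 rose and 3 fell in HF12 relative to C12, with a median of 0.37. Entpd1 (CD39), which makes the AMP that CD73 uses, rose by 2.04 ± 0.06, and the adenosine receptor gene Adora3 by 2.27 ± 0.25. Entpd2, a related ectonucleotidase gene, fell by 0.96 ± 0.08. At 24 weeks 3 rose and 3 fell in HF24 relative to C24, with Entpd1 up by 0.65 ± 0.06. In C24 relative to C12, 6 rose and 3 fell, with Entpd1 up by 0.93 ± 0.06, and in HF24 relative to HF12, 4 rose and 3 fell. The shares of all genes that rose and fell were 13.7% and 17.6% for diet at 12 weeks and 12.9% and 20.2% at 24 weeks. With feeding time they were 24.5% and 22% in chow cells and 21.1% and 25.5% in high-fat cells.

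The ligands and partners of the markers rose more often than they fell in HF12 relative to C12, 5 against 2 of 12. Itga4, the α4 integrin chain that binds VCAM1, rose by 2.72 ± 0.07 and Pdgfa, a ligand of PDGFRα, by 0.47 ± 0.08. Cxcl12, a substrate of DPP4, fell by 0.74 ± 0.12 in HF12 and by 1.14 ± 0.12 in HF24, each relative to chow of the same time. At 24 weeks 3 rose and 2 fell in HF24 relative to C24, among them Cd6, the ALCAM partner, up by 0.58 ± 0.09. In C24 relative to C12, 9 rose and 0 fell, and in HF24 relative to HF12, 7 rose and 1 fell. Of 6 leptin receptor signalling genes, 1 rose and 2 fell in each diet comparison, with the adaptor gene Irs1 at −1.14 ± 0.05 in HF12 and −0.29 ± 0.05 in HF24. For both lists, the shares of all genes that rose and fell were 13.7% and 17.6% for diet at 12 weeks and 12.9% and 20.2% at 24 weeks. With feeding time they were 24.5% and 22% in chow cells and 21.1% and 25.5% in high-fat cells.

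Other lists of cell type markers had other orders. The summed endothelial level was 8.35 to 8.46 in HF12, 8.97 to 9.05 in C12, 22.2 to 22.7 in HF24 and 15.5 to 16.1 in C24. That of pericytes and smooth muscle was 141 to 147 in HF12, 110.5 to 127 in C12, 235 to 240.4 in HF24 and 161 to 169 in C24. These 2 lists were highest in HF24, as Thy1 was. The skeletal muscle level was 54.9 to 58.0 in HF12, 76.9 to 79.9 in C12, 5.86 to 5.90 in HF24 and 26.3 to 27.1 in C24. Such a sum follows its brightest genes. Of the 6 muscle genes, 2 fell and 0 rose in HF12 relative to C12, where 17.6% of all genes fell. In HF24 relative to C24, 5 fell and 0 rose, where 20.2% of all genes fell.

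Lists with little signal were also read. The keratinocyte and epithelial level was 0.180 to 0.203 in HF12, 0.134 to 0.154 in C12, 0.360 to 0.468 in HF24 and 3.49 on both C24 arrays, with Cdh1 not well above background in any group. The Schwann cell level was 1.96 to 2.02 in HF12, 2.10 to 2.21 in C12, 0.831 to 0.832 in HF24 and 1.98 to 2.11 in C24. Of the 5 mesothelial markers Upk3b and Lrrn4 were not well above background on any array, with a summed level of 0.775 to 0.778 in HF12, 0.582 to 0.596 in C12, 0.675 to 0.756 in HF24 and 1.05 to 1.09 in C24. Lymphocyte markers were above background for 2 to 4 of 5 genes on an array, with sums between 1.34 and 1.87 in all groups. Within that list Nkg7, a gene of cytotoxic lymphocytes, rose in HF24 relative to C24 (2.72 ± 0.16, adjusted p = 1.89e-04), being well above background on 2 HF24 arrays and 1 C24 array. It was at least 11.5-fold higher in HF24 than in HF12, where it was not well above background. The part of these cell types in the marker differences was not tested.

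**Figure D4:**
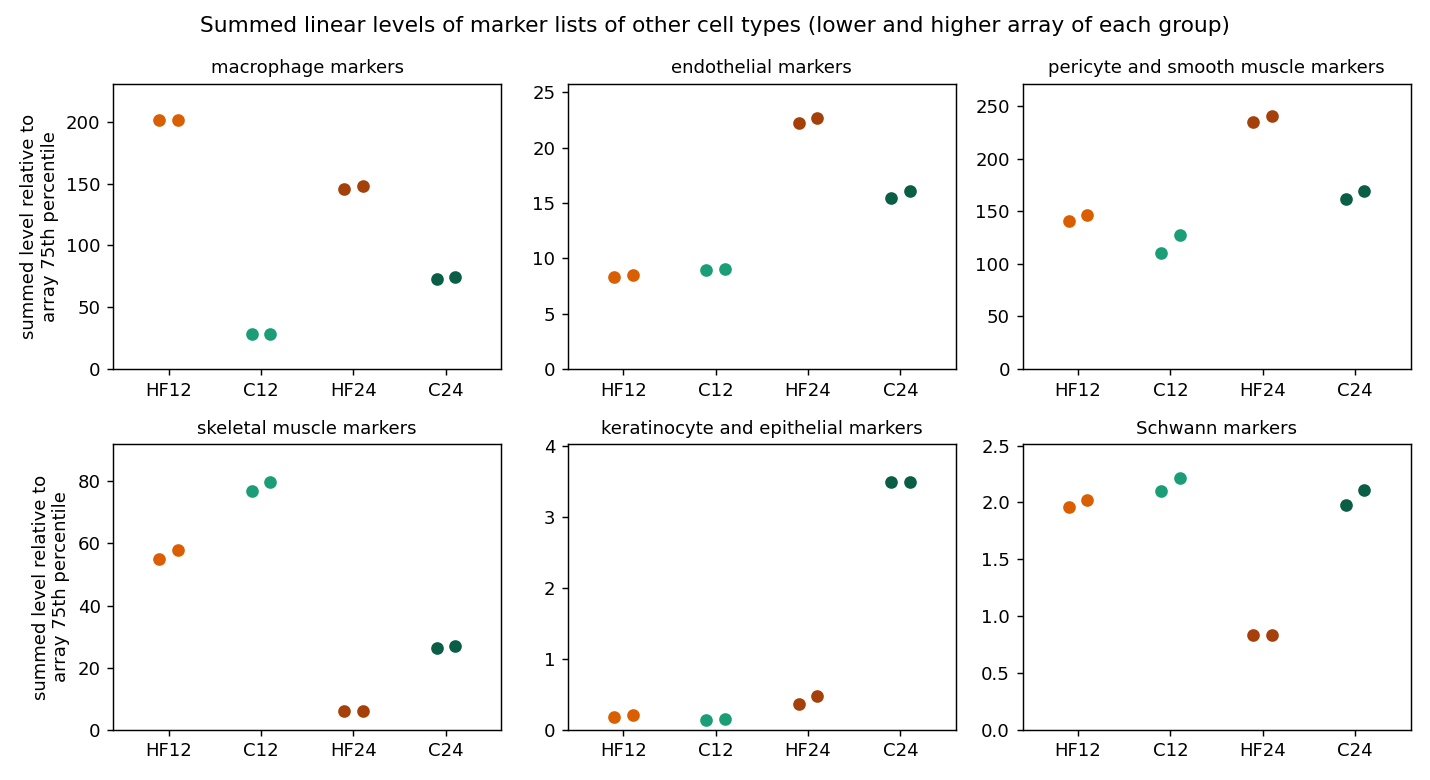
Summed level of 6 marker lists of other cell types, in units of the 75th percentile of each array, with the lower and the higher array of each group as points and each axis starting at 0. The macrophage sum is highest in HF12 (201) and lowest in C12 (27.9 and 28.2), the endothelial and pericyte sums are highest in HF24, and the skeletal muscle sum is lowest in HF24.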

How the data were processed

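Each array measured total RNA with 1 dye (Cy3) on an Agilent mouse array, and all 8 were read on 1 slide with Agilent Feature Extraction 11.0.1.1, per the file headers and the submitters' processing notes. The deposited processed intensity is background-subtracted and detrended within its array, per the file headers, with no scaling between arrays. A table of log2 values by the authors covers 38475 probes, 38346 of them found in the array files. Set against the processed intensity on the log2 scale, each of its columns had slope 1 and a fixed offset between −9.99 and −9.79, and column medians lay between −1.44 and −1.33. The rule for that offset is not given in the sources used here.

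The 59305 non-control spots per array covered 56605 probes, of which 192 with only outlier-flagged spots were left out. Spots of a probe were averaged and the 75th percentile over non-control spots subtracted. Probes well above background on both arrays of at least 1 group were kept (37651), with 1 probe per gene, the highest in mean. Names came from accessions matched to a RefSeq gene table (GRCm38.p6), which gave 1 symbol for 32907 of 56413 probes (58.3%). The headers name another build (mm9), so probe coordinates are not printed. The fit used limma 3.58.1 (R 4.3.3) with a mean for each group (4 residual and 1.87 prior degrees of freedom), two-sided, with Benjamini-Hochberg adjustment over all 29585 features and a threshold of 0.05. Errors are standard errors unless given as SD. Intervals are at 95% and cover the spread between arrays only, and 2 arrays a group limit the precision. Python 3.11.15, pandas 2.3.3 and matplotlib 3.10.9 did the rest. The fit was tested on simulated data, with 50 features changed at each size in HF12 relative to C12. It recovered 18% of changes of 0.5 log2 units, 78% at 1, 94% at 2 and 90% at 3. Of 29385 unchanged features 10 were called. Far fewer features were changed there than passed in the real data (9263).

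The markers and gene lists were chosen with earlier results of these data known. Named genes are the markers, up to 4 called genes of each list by smallest p per comparison, and the 3 genes most correlated with each marker. For Vcam1 1 of these is not reported here. Replicate numbers do not pair the samples, with correlations of same-numbered deviations between −0.08 and 0.17. Alternatives were normexp correction (offset 50) with quantile scaling, quantile scaling alone, the authors' table, no filter, every kept probe, a filter over all arrays, a variance trend with intensity, only the groups compared, a replicate block and leaving out each array. Treating flagged spots as missing and taking the percentile over probes were added after seeing the data. Normexp was planned on the mean signal and used the deposited median intensity and background intensity instead.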

Additional observations from a re-analysis of the deposited data

Results flagged for a closer look

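For 5 of the 9 tested markers the diet difference itself differed between the feeding times, by limma's test of the 24-week difference (HF24 minus C24) minus the 12-week difference (HF12 minus C12). The value was 2.90 for Nt5e on the log2 scale, 1.61 for Pi16, 1.32 for Dpp4, 0.81 for Cd34 and −1.65 for Alcam. In each of these the 12-week diet difference was the larger in size, and 29.7% of all genes tested passed the same test. The Cd34 value no longer passed without HF12 replicate 1.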

How the results depend on the processing

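The values of single markers were recomputed under 866 combinations of marker, comparison and alternative. Of these, 777 kept their direction and their side of the threshold, 64 kept the direction and lost the call, 9 gained one and 16 changed sign. The number of markers that passed stayed within 1.5 times its main value in HF12 relative to C12 (8, against 7 without any 1 array and 7 to 9 otherwise) and in C24 relative to C12 (5, against 5 to 6). In HF24 relative to C24 it was 5 in the main fit and 3 with normexp and quantile scaling, 3 with quantile scaling, 3 with no filter on dim probes and 2 to 4 when 1 array was left out. With no filter, 45477 features were tested. In HF24 relative to HF12 it was 8, against 5 when every probe had to pass on its own and 4 to 8 when 1 array was left out. For the change in the diet difference it was 5, against 3 with every kept probe and 4 to 5 when 1 array was left out. Where the scaling or an array changed a count, the cause was not tested.

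With the replicate number as a block, 7 markers passed in HF12 relative to C12, 4 in HF24 relative to C24 and 7 in HF24 relative to HF12. The calls lost to the block were those of Thy1 in both diet comparisons and of Vcam1 in HF24 relative to HF12 (adjusted p = 0.0662), and the block changed no other call of a marker. Every change of sign was in a value that had missed the threshold, except that of Vcam1 in HF24 relative to HF12, which was −0.061 on the second probe. For the change in the diet difference, Thy1 turned to 0.076 with normexp and quantile scaling, 0.014 with the authors' table and 0.0084 with the percentile over probes, and ranged from −0.060 to 0.021 when 1 array was left out. Pdgfra turned to −0.052 with normexp and quantile scaling and −0.043 with quantile scaling, and ranged from −0.052 to 0.069 when 1 array was left out. Vcam1 turned to −0.24 on its second probe. In C24 relative to C12, Vcam1 turned to 0.18 on that probe and ranged from −0.054 to 0.0049 when 1 array was left out. Leaving out 1 array gave −0.15 to 0.075 for Pi16 in HF24 relative to C24 and −0.20 to 0.052 for Lepr in HF12 relative to C12. Signal over background limits the second Dpp4 probe, which was above it in C12 alone and missed the threshold in both HF24 comparisons.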
